A study of Ptychidio jordani with 7 samples.

Results

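The keratin genes of Ptychidio jordani, the ratmouth barbel, a cyprinid fish of fresh waters, were examined in RNA-seq libraries of 7 tissues: fin (the caudal fin, per the series' design), gill, kidney, muscle, heart, spleen and liver. A keratin row was one whose gene name began with krt and a digit, or whose protein description contained "keratin, type". This rule found 28 of 26107 rows, 14 by both criteria, 10 by name only and 4 by description only. Each tissue was represented by 1 sample, titled as normal RNA-seq, with no treatment, age or sex given in the labels. Differences were therefore not checked by replicates, and no test was run. Values are FPKM, fragments per kilobase of transcript, scaled to library size, a unit that allows levels of different genes to be compared per length. The table gives no read totals, so depth is unknown.

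Keratins are the intermediate filament proteins of epithelial cells. Each filament is built from pairs of an acidic type I chain and a basic type II chain, and the filaments are anchored to cell contacts at desmosomes and to the basement membrane at hemidesmosomes. In mammals keratin 8 and keratin 18 are the pair of simple epithelia, including hepatocytes, while stratified epithelia such as skin use other pairs. In teleosts keratins have also been found in some cells that are not epithelial. The names in the table come from the closest described proteins, often of mammals or other fish, and several rows share 1 name, so rows are told apart here by identifier.

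The labelled tissues were compared with their markers, taking the highest copy of each name. All 5 fin, 4 gill, 4 kidney, 4 muscle and 4 heart marker names were highest in their own library. Only 1 of the 6 liver marker names, vtg1, was highest in liver. FGA, FGB, fgg and TTR were highest in the library labelled spleen, and apoa1 was at most 1.98, in muscle. The 6 liver markers summed to 57860 in the library labelled spleen and to 69470 in liver, and to at most 5.56 elsewhere. None of the 4 spleen markers found was highest in the library labelled spleen, where TLX1 and SPARCL1 were listed at 0 and the 4 summed to 6.05, so it is named by its label throughout. Egg markers (ZP2, ZP3, ZP4, zar1, BMP15) summed to 2277 in fin, 10.6 in gill, 10870 in kidney and 19280 in muscle. Their sums were 654 in heart, 1025 in the library labelled spleen and 162 in liver. Red cell globins summed to 5245 in fin, 17210 in gill, 127600 in kidney and 56090 in heart.

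Keratin transcripts were abundant in fin and gill and scarce in the 5 internal libraries. The 28 rows summed to 36937 in fin and 8639 in gill, against 447 in kidney, 338 in muscle, 192 in heart, 173 in the library labelled spleen and 155 in liver. They held 5.18% of the summed FPKM of fin and 1.299% of that of gill, and at most 0.0584% of any internal library. In these bulk samples a lower share of epithelial cells and less keratin RNA per cell cannot be told apart. An FPKM is a share of its library, and scaling the libraries to a common median changed the order of the internal ones: the sums became 21870 in fin and 5583 in gill, against 216 in kidney, 216 in muscle, 246 in heart, 377 in the library labelled spleen and 576 in liver. Fin and gill stayed above the rest, but liver was then the highest internal library.

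**Figure D1:**
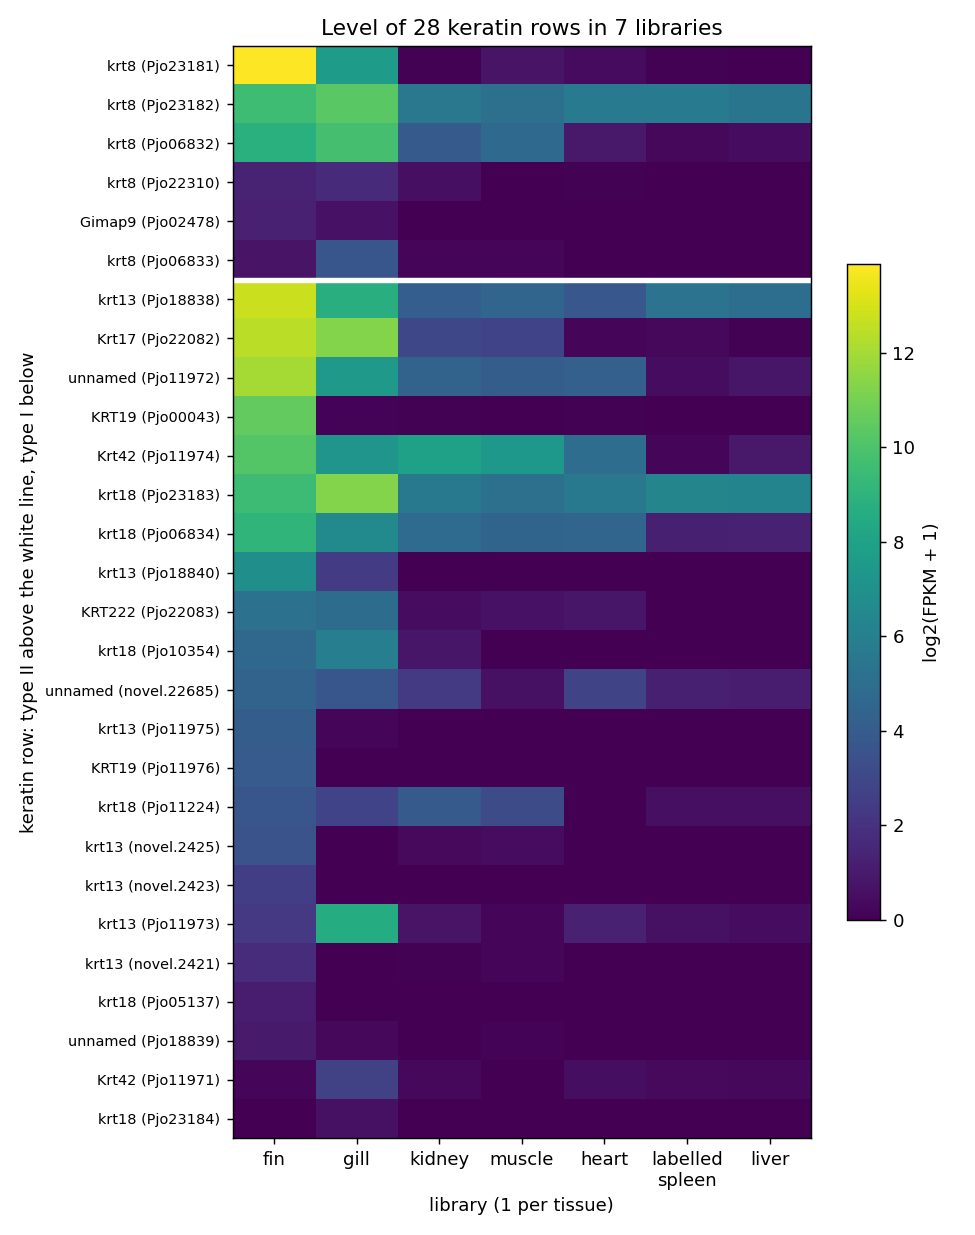
Each row is 1 of the 28 keratin rows and each column 1 of the 7 libraries, coloured by log2(FPKM + 1), with the 6 type II rows above the white line and the 22 type I rows below it. The highest levels lie in the fin and gill columns, while krt8 (Pjo23182) and krt18 (Pjo23183) are at 33.7 or more in all 7 libraries.

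Of the 28 rows, 24 reached an FPKM of at least 1 in fin and 18 in gill. The counts were 10 in kidney, 9 in muscle, 8 in heart, 5 in the library labelled spleen and 5 in liver. Of all rows in the table, 64.4% reached this level in fin, 62.1% in gill, 61.3% in kidney, 55.6% in muscle, 48.4% in heart, 42.2% in the library labelled spleen and 33.8% in liver. The members' 85.7% in fin lay above that background, their 64.3% in gill was close to it, and their share in each internal library lay below it, between 17.9% and 35.7%. Among the 26 keratin rows with at least 1 FPKM somewhere, fin was the highest library for 17, gill for 8 and kidney for 1. Fin was highest for 18.4% and gill for 23.2% of all rows of that level. For 25 of the 26, the higher of fin and gill exceeded every internal library, as it did for 41.5% of all rows of that level.

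A row was called enriched in a library where its FPKM was 10 or more and its FPKM + 1 exceeded each of the other 6 libraries 5-fold or more. It was called shared by fin and gill when the lower of both was 10 or more and, on the same scale, exceeded each of the 5 internal libraries 5-fold or more. In fin 9 keratin rows were enriched, where the background was 0.969% of all rows. In gill 2 were enriched, against a background of 1.13%, and none was in an internal library, where 1.89% of all rows were. Fin and gill shared 9, against a background of 1.37%, and 3 of these were also enriched in fin. Together these calls covered 17 keratin rows. Only the 20 that reached 10 somewhere could be called, since each call requires that minimum. No share over all rows was computed for this count, so it cannot be set against a background. After scaling to a common median, 6 keratin rows were enriched in fin, among them Krt42 (Pjo11974), which was not called as deposited. Of the 9 shared rows, 5 still met the rule. Those that did not were krt8 (Pjo23182), krt18 (Pjo23183), krt13 (Pjo18838) and the unnamed row Pjo11972. Shares over all rows were not computed after scaling.

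The type II keratins comprised 5 rows named krt8 and the row Pjo02478. In that row the protein description names a type II keratin while the gene name is Gimap9 and the best described protein is a GTPase, and its highest level was 1.46, in fin. One krt8 row dominated fin. krt8 (Pjo23181) was at 14981 in fin and 196 in gill, and at 0.07 in kidney, 0.67 in muscle, 0.34 in heart, 0.04 in the library labelled spleen and listed at 0 in liver. It ranked 2 among all rows of fin and held 40.6% of the keratin FPKM there. Its described protein is ON3-like, after an intermediate filament protein of the goldfish optic nerve.

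The second krt8 row had another pattern. krt8 (Pjo23182) was at 746 in fin, 1258 in gill, 46.6 in kidney, 33.7 in muscle, 51.2 in heart, 52.2 in the library labelled spleen and 41.6 in liver. It was higher in gill than in fin. Its 5 internal values lay close together as deposited, but after scaling they ran from 21.5 in muscle and 22.5 in kidney to 65.4 in heart, 114 in the library labelled spleen and 154 in liver. krt8 (Pjo06832) was also higher in gill, at 449 in fin and 863 in gill, with 14.4 in kidney, 25.3 in muscle, 0.9 in heart, 0.21 in the library labelled spleen and 0.36 in liver. Unlike Pjo23182, it was under 1 in the last 3 of these libraries as deposited. After scaling it was at 1.15 in heart, 0.46 in the library labelled spleen and 1.34 in liver. krt8 (Pjo06833), enriched in gill, was at 0.69 in fin and 11.9 in gill and at most 0.2 elsewhere. krt8 (Pjo22310) was at 1.63 in fin and 2.25 in gill. The 5 krt8 rows therefore differed from each other by library as well as by level.

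Type I keratins numbered 22 rows. Of the 6 rows named krt18, 4 reached 10 somewhere. krt18 (Pjo23183) was at 715 in fin, 2469 in gill, 47.2 in kidney, 34.1 in muscle, 47.4 in heart, 77.7 in the library labelled spleen and 76.4 in liver. Like krt8 (Pjo23182) it was highest in gill and present in every library. After scaling it was at 423 in fin, 1596 in gill, 169.6 in the library labelled spleen and 284 in liver. It then no longer met the rule for rows shared by fin and gill. krt18 (Pjo06834) was instead highest in fin, at 530, with 100.07 in gill, 27.4 in kidney, 21.1 in muscle, 22.3 in heart, 1.31 in the library labelled spleen and 1.39 in liver. krt18 (Pjo10354) was at 24.7 in fin and 59.8 in gill and at most 0.79 elsewhere, so it was a low row shared by fin and gill. krt18 (Pjo11224) was at 12.1 in fin, 5.98 in gill, 14.1 in kidney and 7.95 in muscle, and at most 0.51 in the other libraries. It was the one keratin row above every other library in kidney, by less than 1.5-fold over fin, and scaling turned this order, with 7.18 in fin and 6.80 in kidney. The remaining krt18 rows, Pjo05137 and Pjo23184, peaked at 1.07 in fin and 0.53 in gill.

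The identifiers of krt8 and krt18 rows lie next to each other in the table, Pjo23181 to Pjo23184 and Pjo06832 to Pjo06834; whether identifiers follow genome order is not given in the sources used here. Within the first group, krt8 (Pjo23182) and krt18 (Pjo23183) were at similar levels in 4 libraries. The krt8 over krt18 ratio of FPKM was 1.04 in fin, 0.988 in kidney, 0.988 in muscle and 1.08 in heart. In gill it was 0.510, in the library labelled spleen 0.672 and in liver 0.544, so krt18 was higher in these 3. The pair made up 3.96% of keratin FPKM in fin and 43.1% in gill. It made up 21.0% in kidney, 20.02% in muscle, 51.3% in heart, 75.2% in the library labelled spleen and 76.2% in liver. In liver, whose hepatocytes are known in mammals for keratin 8 and keratin 18, the only other row above 10 was krt13 (Pjo18838).

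The second pair was less balanced. It leaves out krt8 (Pjo06833), which was at 0.69 in fin, against 530 for krt18 (Pjo06834). The ratio of krt8 (Pjo06832) to krt18 (Pjo06834) was 0.849 in fin and 8.62 in gill, and among the internal libraries it ran from 0.0403 in heart to 1.20 in muscle. These ratios are of single libraries, and reads of near-identical copies can be divided between rows by the estimation, which makes values of copies uncertain.

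**Figure D2:**
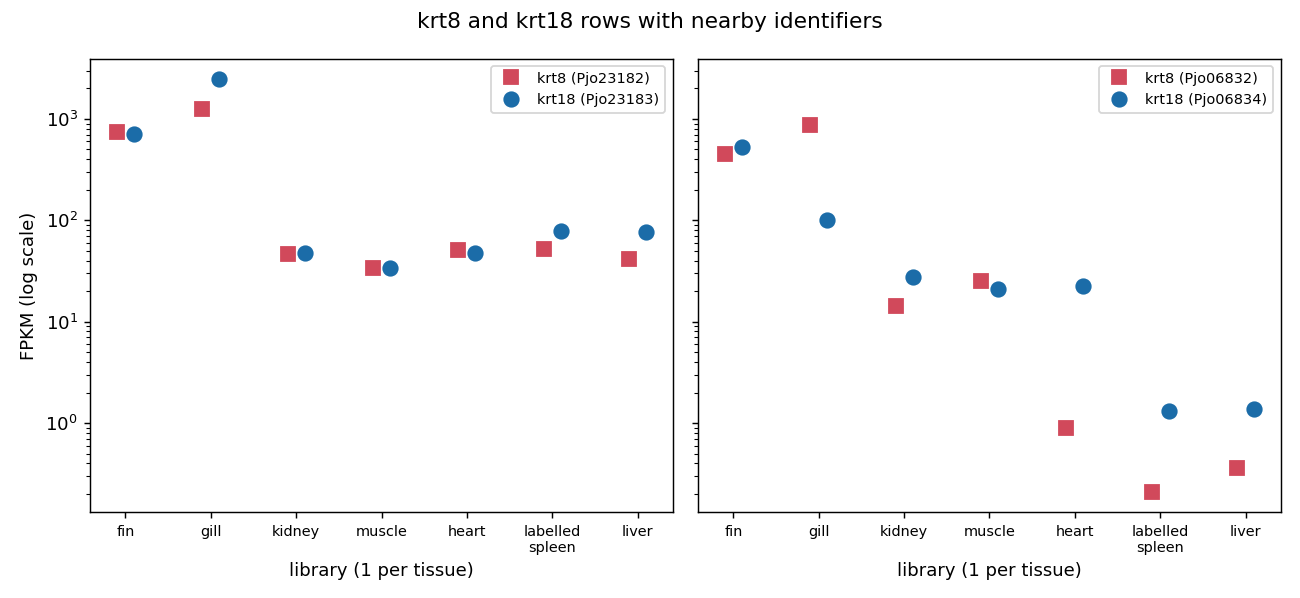
FPKM on a log axis of a krt8 row (squares) and a krt18 row (circles) in the 7 libraries, for Pjo23182 with Pjo23183 on the left and Pjo06832 with Pjo06834 on the right. On the left the symbols stay within a ratio of 0.510 to 1.08, and on the right the ratio runs from 0.0403 in heart to 8.62 in gill. These pairs were not among the planned comparisons.

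The most abundant type I rows of fin were named or described as keratins of other kinds. krt13 (Pjo18838), named for a keratin that in mammals belongs to wet stratified epithelia such as the mouth lining, was at 6959 in fin and 437 in gill. It was at 16.5 in kidney, 21.7 in muscle, 12.8 in heart, 37.7 in the library labelled spleen and 31.1 in liver, and it ranked 6 in fin. As deposited it was one of 3 keratin rows above 10 in all 7 libraries, with krt8 (Pjo23182) and krt18 (Pjo23183). After scaling it was at 7.98 in kidney, 82.3 in the library labelled spleen and 115.7 in liver. Krt17 (Pjo22082), whose mammalian namesake marks basal cells and skin appendages, was at 5598 in fin and 2481 in gill, 6.95 in kidney and 5.84 in muscle. Its values were 0.2 in heart, 0.23 in the library labelled spleen and 0.05 in liver. It was the highest keratin row of gill, at rank 34 there and rank 8 in fin. An unnamed row (Pjo11972), described as a type I keratin first known from goldfish, was at 4093 in fin and 178 in gill. It was at 20.6 in kidney, 16.01 in muscle and 17.9 in heart, but at 0.39 in the library labelled spleen and 0.8 in liver. With krt8 (Pjo23181), these 3 type I rows made up 85.6% of the keratin FPKM of fin.

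KRT19 (Pjo00043) showed the largest log2 ratio of fin over gill among the keratin rows, 10.37 on the FPKM + 1 scale. It was at 1465 in fin and 0.11 in gill, at most 0.06 in kidney, heart and the library labelled spleen, and listed at 0 in muscle and liver. Its mammalian namesake is a small keratin of ductal and other simple epithelia that lacks a tail domain. A second KRT19 row (Pjo11976) was at 14.64 in fin, listed at 0 in gill, heart, the library labelled spleen and liver, and at most 0.03 elsewhere. Among the 7 rows named krt13, Pjo18840 was at 121 in fin and 4.37 in gill, Pjo11975 at 16.3 and 0.20, and a krt13 row outside the named annotation at 10.7 in fin and listed at 0 in gill. Each was at most 0.38 in every internal library. Apart from the 4.37 of Pjo18840 in gill, these rows were in fin almost alone, as were krt13 rows outside the named annotation at 4.94 and 2.38 in fin.

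krt13 (Pjo11973) was the clearest gill row. It was at 4.01 in fin and 377 in gill, 0.64 in kidney, 0.12 in muscle, 1.39 in heart, 0.52 in the library labelled spleen and 0.37 in liver. Its log2 ratio of fin over gill was -6.24, the lowest of the keratin rows. A Krt42 row (Pjo11971) likewise was at 0.13 in fin and 5.57 in gill and at most 0.41 elsewhere. Both belong to a run of 6 keratin rows with consecutive identifiers, Pjo11971 to Pjo11976, whose other 4 rows were highest in fin. In all, 18 of the 24 keratin rows of the named annotation lay in 5 such runs.

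Krt42 (Pjo11974), named for a type I keratin known from rodents, stood apart by its internal levels. It was at 1129 in fin, 149 in gill, 246 in kidney, 170 in muscle and 30.2 in heart, and at 0.13 in the library labelled spleen and 0.91 in liver. It was the one keratin row of at least 100 anywhere that was higher in kidney and muscle than in gill. It held 55.0% of the keratin FPKM of kidney and 50.2% of that of muscle. After scaling it was at 668 in fin, 96.0 in gill, 119 in kidney and 108 in muscle. It then met the 5-fold rule for enrichment in fin, which it did not as deposited. Among rows of lower level, krt18 (Pjo11224) was also higher in kidney and muscle, at 14.1 and 7.95 against 5.98 in gill. The 41 egg coat rows, which were at 0 to 5.53 in gill, had a median of 75.3 in fin, 0.57 in gill, 429 in kidney, 676 in muscle, 18.9 in heart, 37.0 in the library labelled spleen and 5.04 in liver. Whether egg material had a part in the Krt42 level was not tested.

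The other rows were low. KRT222 (Pjo22083), a keratin-like gene, was at 35.1 in fin and 28.6 in gill and at most 0.77 elsewhere. An unnamed krt18-like row outside the named annotation was at 20.4 in fin, 12.3 in gill, 4.22 in kidney, 0.56 in muscle, 6.08 in heart, 1.34 in the library labelled spleen and 1.11 in liver. Its log2 range over the 7 libraries, 3.78, was among the 3 smallest of rows that reached 10, after the krt13 row at 10.7 in fin, with 3.55, and krt8 (Pjo06833) at 3.69. The 8 rows under 10 everywhere peaked between 0.53 and 5.57, 5 of them in fin and 3 in gill, and none was above 0.5 in an internal library.

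Fin was set against gill because both are surface tissues. Of the 26 rows at 1 or more in either, 18 were higher in fin (69.2%) and 8 in gill (30.8%). Of all 18359 rows of the table at that level, 56.1% were higher in fin and 43.9% in gill. The keratin rows' median log2 ratio of fin over gill was 1.11, beside 0.14 for all rows at that level, which also gives the general shift between these libraries. The range over keratin rows was -6.24 to 10.37. At least 5-fold, 10 keratin rows were higher in fin (background 2.41% of all rows) and 2 were higher in gill (background 2.11%). Among rows at 10 or more in either library, these were 10 and 2 of 20, against 7.57% and 6.64% of 8313 rows. Scaling to a common median left 6 of the 10 and 1 of the 2, and changed the sign of no row. The minimum of 10 also applied to scaled values. Pjo11975 at 9.64, Pjo11976 at 8.67 and a krt13 row outside the named annotation at 6.35 in fin then fell under it. So did Pjo06833 at 7.68 in gill, while krt18 (Pjo06834) fell below 5-fold. Egg coat rows, which are not epidermal, were higher in fin as well, at a median of 75.3 against 0.57 in gill, and their part in the comparison was not tested.

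**Figure D3:**
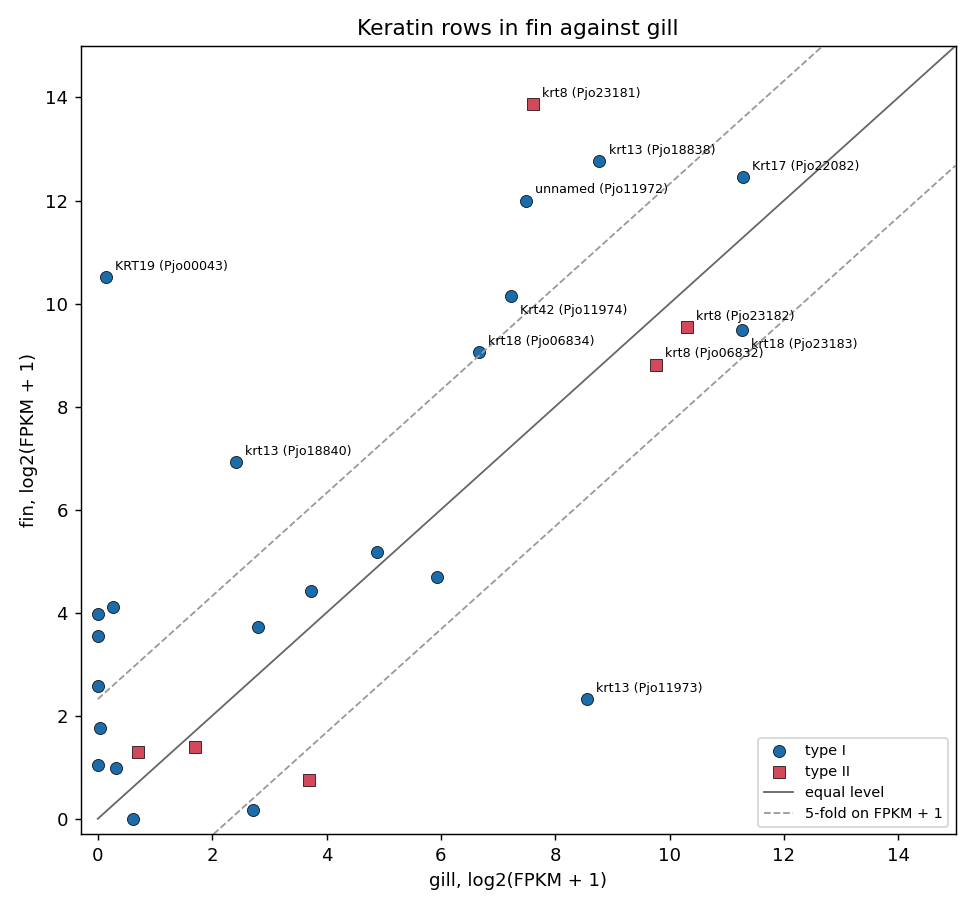
Each point is 1 keratin row at its log2(FPKM + 1) in fin (vertical) and gill (horizontal), type I as blue circles and type II as red squares, with the line of equal level and dashed lines at 5-fold. KRT19 (Pjo00043) lies farthest to the fin side at a log2 ratio of 10.37 and krt13 (Pjo11973) farthest to the gill side at -6.24, while krt8 (Pjo23182), krt8 (Pjo06832), krt18 (Pjo23183) and Krt17 (Pjo22082) lie within 5-fold.

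Among rows at 10 or more in either library, the largest ratios after KRT19 were those of krt8 (Pjo23181) at 6.25, the unnamed row Pjo11972 at 4.52, krt13 (Pjo18840) at 4.50 and krt13 (Pjo18838) at 3.99. On the gill side krt8 (Pjo06833) at -2.93, krt18 (Pjo23183) at -1.79, krt18 (Pjo10354) at -1.24 and krt8 (Pjo06832) at -0.94 followed krt13 (Pjo11973). By name, the krt8 rows together were at 16179 in fin and 2331 in gill, the krt13 rows at 7118 and 818, and the krt18 rows at 1282 and 2636. The sums of krt8 and krt18 thus differed in direction. The 4 krt8 rows other than Pjo23181 were each higher in gill, though Pjo22310 only at 2.25 against 1.63 in fin. Among the 6 krt18 rows 3 were higher in gill, of which Pjo23184 was at only 0.53 there and listed at 0 in fin. Of all rows at 1 or more in either library, 43.9% were higher in gill. Krt17 held 28.7% of the keratin FPKM of gill, and Krt17 with krt18 (Pjo23183) 57.3%.

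Summed by type, type I and type II levels were closest in fin. Type I rows summed to 20756 and type II rows to 16181 in fin, a ratio of 1.28. In gill the sums were 6308 and 2331, a ratio of 2.71. The internal libraries had ratios of 6.23 in kidney, 4.66 in muscle, 2.66 in heart, 2.29 in the library labelled spleen and 2.69 in liver, so with this assignment of types, type I FPKM was the higher in each. The value in fin depends on its most abundant rows: without the highest row of each type there, krt8 (Pjo23181) and krt13 (Pjo18838), the ratio was 11.5. The order in fin also depends on how types are assigned. With type taken from the number in the name alone, which gives no type to Krt42, KRT222 or rows without a krt name such as Pjo11972, the ratio turned to 0.957 in fin, with type II the higher. It was then 2.55 in gill, 1.84 in kidney, 1.53 in muscle, 1.60 in heart, 2.25 in the library labelled spleen and 2.62 in liver.

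**Figure D4:**
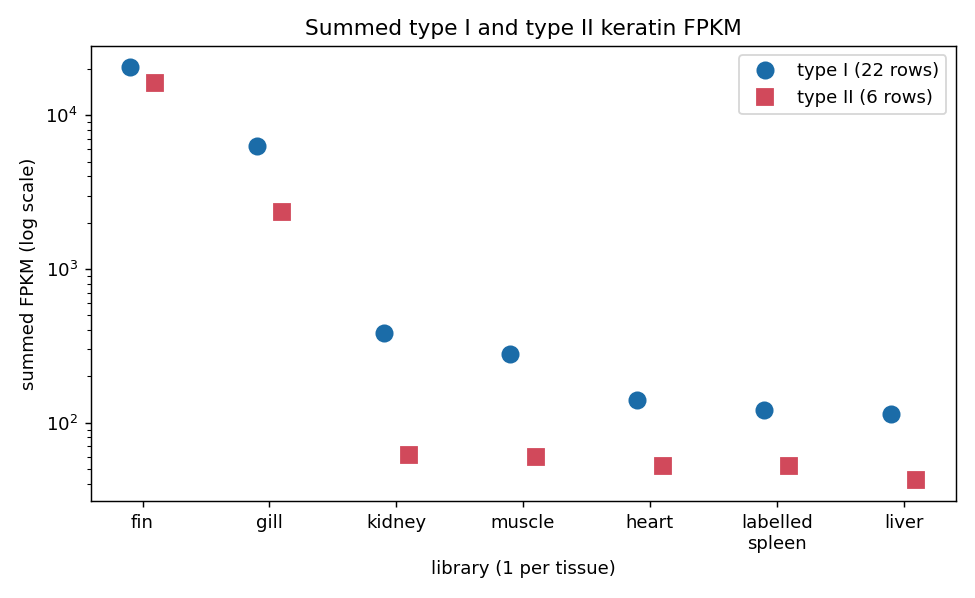
Summed FPKM, on a log axis, of the 22 type I rows (blue circles) and the 6 type II rows (red squares) in each library. With types read from the protein description first, type I lies above type II by a ratio of 1.28 in fin, 2.71 in gill and 6.23 in kidney, but with types from the name's number alone the fin ratio turns to 0.957.

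Genes that anchor keratin filaments or mark epithelia were taken from lists matched by name. The desmosome list (cell contacts on which keratin filaments end) had 14 rows, with medians of 31.3 in fin and 10.2 in gill, against 1.08 in kidney, 0.70 in muscle, 4.92 in heart, 2.21 in the library labelled spleen and 2.095 in liver. Of these 10 were highest in fin, 1 in gill and 3 in heart, whose muscle cells also carry desmosomes. PERP was at 2084 in fin and 495 in gill, the desmosomal cadherin Dsc1 at 556 and 85.6, the plakophilin PKP3 (Pjo24494) at 448 and 323, and DSP (Pjo01257), desmoplakin, which binds keratin filaments, at 422 and 162. The list was fin-weighted, with a median log2 ratio of fin over gill of 1.24.

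The hemidesmosome and plakin list joins genes of basal cell attachment to the basement membrane with plakin genes, not all of which serve that attachment. It was higher in fin by a median log2 ratio of 1.59 over the 16 of 17 rows at 1 or more in either library. Its median was 163 in fin and 30.4 in gill and at most 0.69 elsewhere, and 11 rows were highest in fin and 4 in gill. ITGA6 (Pjo00654) and Itgb4 (Pjo09329), which form the hemidesmosome integrin, were at 602 and 586 in fin and 30.4 and 53.2 in gill. COL17A1 (Pjo13553), a transmembrane collagen of hemidesmosomes, was at 584 in fin and 7.96 in gill. A second, low COL17A1 row (Pjo00336) was at 0.68 in fin and 5.6 in gill. The periplakin gene PPL was at 321 in fin and 144 in gill. A copy of Plec (Pjo19045), plectin, ran the other way at 31.1 in fin and 397 in gill, and was chosen after its values were seen. Its other copies were higher in fin, Pjo16888 at 218 against 38.5 in gill and Pjo19044 at 28.35 against 6.1.

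Cornification and filament linker genes had similar medians in fin and gill. The list's 15 rows had medians of 9.13 in fin and 8.57 in gill and a median log2 ratio of 0.22 over 11 rows. ANXA1, an annexin, was at 2098 in fin and 2046 in gill, Scel (Pjo09747), sciellin, at 221 and 189, SCEL (Pjo07189) at 201 and 16.1, and the transglutaminase TGM5 (Pjo06239) at 114 and 2.24. The 46 epithelial identity rows also lay close between these libraries, at medians of 25.2 in fin and 20.9 in gill and a median log2 ratio of 0.19, with 21 highest in fin and 17 in gill. The adhesion gene Epcam was at 2940 in fin and 4472 in gill, also at 616 in kidney and 1154 in muscle. The claudins CLDN4 (Pjo03398) and a Cldn4 row outside the named annotation, of tight junctions, were at 605 and 932 in fin and 1184 and 905 in gill, and the transcription factor Klf4 (Pjo21559) was at 406 and 354.

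Other intermediate filament genes were mostly low in both surface tissues. The 22 rows had medians of 0.12 in fin and 0.38 in gill, with at most 0.34 elsewhere, and 6 were highest in fin, 2 in gill, 6 in kidney, 3 in muscle and 5 in heart. The lamin genes LMNA and Lmnb1, of the nuclear envelope, were at 175 and 9.57 in fin and 29.3 and 10.9 in gill. The vim rows, which encode vimentin of mesenchymal cells, were at 53.1 (Pjo23684) and 3.86 (Pjo02232) in fin and 6.39 and 8.03 in gill. For comparison, and chosen after its values were seen, des (Pjo09846), the desmin of muscle cells, was at 168 in muscle and 985 in heart and at most 3.92 elsewhere, in libraries where the keratins were low.

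**Figure D5:**
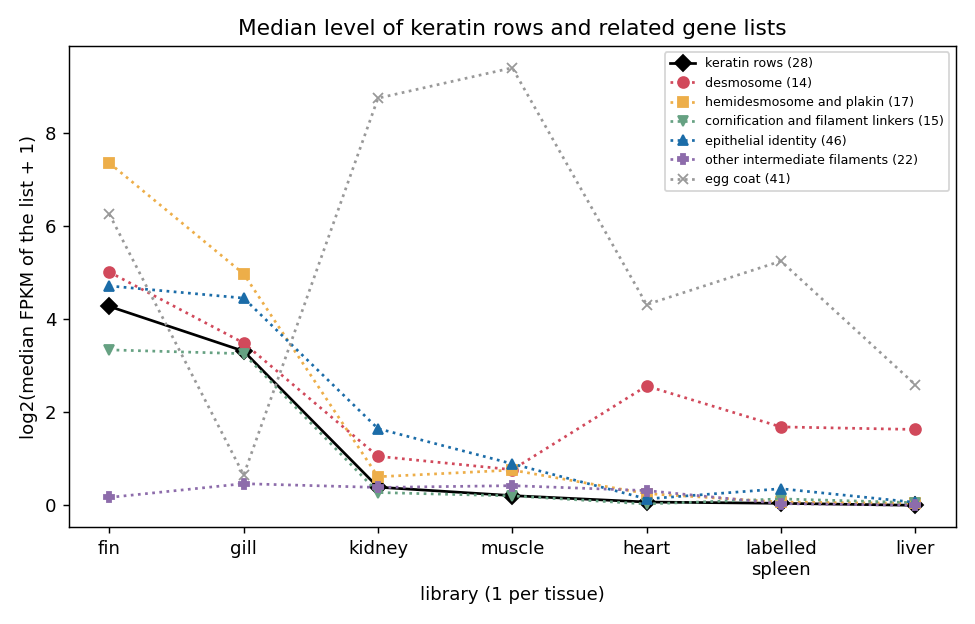
Median FPKM of the 28 keratin rows and of 6 related lists in each library, as log2 of the median + 1, with lines only to join the points of a list and the number of rows in brackets. The keratin, desmosome, hemidesmosome, cornification and epithelial identity medians are highest in fin and next in gill, and the egg coat median is highest in muscle at 676 and lowest in gill at 0.57.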

How the data were processed

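RNA-seq was measured in 1 sample of each of 7 tissues. Per the labels' protocols, TRIzol was used for extraction and a Vazyme kit for MGI sequencers for the libraries. The submitters' processing notes name HISAT2 2.2.1 and RSEM 1.3.3. A genome build is not given in the sources used here, nor an annotation. The authors deposited FPKM values of 26107 rows to 2 decimals, with identifiers of the authors' named annotation (Pjo) and of loci outside it. No read totals come with them, so no counting interval is given.

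Python 3.11.15, numpy 2.4.6, pandas 2.3.3 and matplotlib 3.10.9 were used. Ratios used FPKM + 1, and calls used a minimum FPKM of 10 and 5-fold. Type I or II was read from the protein description, for 23 rows, and otherwise from human keratin numbering, for 5. Median-of-ratios scaling used 17448 rows above 0 in every library. The calls of enrichment in fin and of fin over gill were checked on simulated rows raised in fin alone. Those rows lay above the minimum and were otherwise near even across libraries, unlike most keratin rows. Simulated rows raised in both fin and gill were not made, so the shared rule was only checked to call none. Alternatives changed the FPKM limits, fold, pseudocount, scaling, membership rule, type rule, copies per name and libraries. Others left out Pjo02478 (Gimap9), the highest row of each type or the 10 highest other rows.

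The keratin rows and the lists (desmosome, hemidesmosome and plakin, cornification, epithelial identity, other intermediate filaments, egg coat, tissue markers) were chosen with earlier results of these data known. Genes named outside the keratins were the 4 highest of each list in the library of its highest median; egg coat genes were given as a list only. With 1 sample per tissue no test was run. No sequences are shown.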

Additional observations from a re-analysis of the deposited data

How the results depend on the processing

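Of 154 recomputed values, 107 stayed within 1.5 times the reported value (for log2 ratios, the same distance), 46 moved further and 1 reversed. The reversed value was the type I over type II ratio of fin. It was 0.957, type II being the higher, with type from the number in the name alone. The 107 include values that could hardly move, such as shares and type ratios without Pjo02478 (Gimap9), which was at most 1.46 in any library. The count enriched in an internal library was 0 in every setting. Counts at 1 FPKM or more became, with a limit of 0.1, 17 in kidney, 16 in muscle, 13 in heart, 12 in the library labelled spleen and 11 in liver. With a limit of 5 the library labelled spleen and liver each had 3, and scaling gave 10 in liver. With members by description alone, which drops 4 of the 5 krt8 rows, 15 were detected in fin, the keratin share was 1.92% in fin and 0.577% in gill, 5 rows were enriched in fin, 5 were shared and 6 were higher in fin than gill. The type I over type II ratio then rested on low rows, at 6355 in fin, 306 in gill, 1889 in kidney, 1433 in muscle, 6965 in heart and 11280 in liver, with no value in the library labelled spleen. With type from the number in the name it was 0.957 in fin, 1.84 in kidney, 1.53 in muscle and 1.60 in heart. Without the highest row of each type it was 11.5 in fin, 70.9 in heart, 170 in the library labelled spleen and 98.6 in liver. The keratin share of liver was 0.0440% without the 10 highest other rows.

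With 1 row per name, 4 were enriched in fin, 0 in gill, 5 were higher in fin than gill and 0 higher in gill. Scaling gave 1 enriched in gill, 5 shared, 6 higher in fin and 1 higher in gill. It also gave 6 enriched in fin in place of 9, a change just within the 1.5-fold limit. The 6 include Krt42 (Pjo11974), which was not among the 9. The 10-fold rule gave 1 enriched in gill and 1 higher in gill. The median log2 ratio of fin over gill was 1.79 with a pseudocount of 0.1 and 1.78 with a minimum of 10. Where no construction is named, the cause was not tested. Leaving out the library labelled spleen changed no count of enriched or shared rows. No paired analysis was possible because each tissue has 1 sample, and the unknown depth limits all low values.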

Other observations

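Filament genes outside the keratin rule, chosen after their values were seen, included rows described as subunits of thread biopolymer filaments, which are keratin-like proteins first known from the slime threads of hagfish. Both such rows were in fin almost alone. Pjo01829 was at 190 in fin and 0.08 in gill, and Pjo21066 was at 54.0 in fin and listed at 0 in gill. In kidney they were at 0.02 and 0.25, and in muscle the second was at 0.17. In heart, the library labelled spleen and liver both were listed at 0.

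A further 9 rows carry keratin in their annotation without being keratins. Among them, KRTCAP2, a subunit of the complex that adds sugar chains to proteins, was at 50.6 in fin, 38.6 in gill, 49.2 in kidney and 50.9 in muscle. KRTCAP3 (Pjo17094) was at 29.2 in fin, 18.8 in gill, 35.1 in kidney and 47.2 in muscle. Another KRTCAP3 row (Pjo19441) was at 58.5 in the library labelled spleen and 50.05 in liver, 0.43 in kidney, and listed at 0 in fin, gill, muscle and heart. tchp, which encodes a keratin filament-binding protein, was at 2.63 in fin, 2.83 in gill and 7.28 in kidney. A row described as a keratin-associated protein (Pjo02973) was at 0.94 in fin and 8.02 in gill and listed at 0 in the 5 internal libraries.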
